A study of Homo sapiens with 12 samples.

Results

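Expression of 10 genes of the antiviral TRIM and PML nuclear body families was examined in FaDu cells with and without STING: TRIM5, TRIM14, TRIM21, TRIM22, TRIM25, TRIM38, PML, SP100, SP110 and SP140L. The 10 genes were picked by symbol, as some of the members of these families, from the 58288 genes listed. They were chosen with earlier results of these data known, so shares among them are descriptive. All 10 passed the filter on low values that 15973 genes passed (at least 1 TPM, transcripts per 1000000, in 3 or more libraries). FaDu is a human head and neck squamous cell carcinoma (HNSCC) line, and STING, the adaptor through which cytosolic DNA sensing turns on interferon genes, is the product of TMEM173. Each of the 4 groups held 3 libraries: unirradiated STING WT, unirradiated STING KO, and WT and KO cells given 4 daily fractions of 2 Gy of ionizing radiation. The WT line carries Cas9 and a non-targeting gRNA, and the KO line carries Cas9 and a gRNA against STING. The RNA table holds 1 cell line per genotype, so that the loss of STING and any other difference between these lines cannot be told apart. The time from the last fraction to RNA collection is not given in the sources used here.

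Most TRIM proteins are E3 ubiquitin ligases whose RING domain attaches ubiquitin to sensors, adaptors or viral proteins, and several of them are themselves induced by interferon. TRIM14 lacks a RING domain and works as an adaptor. PML is the scaffold of PML nuclear bodies, dynamic nuclear structures that depend on SUMO modification, gather SP100 and repress incoming viral genomes. SP100, SP110 and SP140L belong to the Speckled Protein family of chromatin-binding nuclear proteins, whose genes lie beside each other on chromosome 2. Interferon activates these and other genes through transcription factors of the IRF and other families, which bind short DNA elements close to transcription starts.

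The RefSeq start windows (GRCh38.p14, 250 bases before to 50 after each start) were available for 8 of the 10 genes, as 10 windows, since SP110 and SP100 have 2 starts each. TRIM22 and PML were not matched. The stretches printed here are shown because they hold the interferon-type motifs nearest to each start, with bases that match the IRF core (AANNGAAA) or the ISRE core (GAAA, any 2 bases, GAAA) on either strand in capitals. All are written on the strand of the gene, 5′ to 3′. They come from chr2:230225719-230225748 for SP110 start 1, chr2:230220014-230220043 for SP110 start 2, chr2:230327098-230327127 for SP140L, chr2:230416126-230416155 for SP100 start 1, chr6:25962682-25962801 for TRIM38, chr9:98119223-98119342 for TRIM14, chr11:4393663-4393692 for TRIM21, chr11:5685082-5685111 for TRIM5 and chr17:56914034-56914063 for TRIM25. SP110, TRIM14, TRIM21, TRIM5 and TRIM25 are transcribed from the minus strand, and SP140L, SP100 and TRIM38 from the plus strand.
SP110 start 1: caaagaggAAAAGAAAAGTGAAAttgccta
SP110 start 2: ccgaaaacTTTCACTTTTCTTTTctcggaa
SP140L: ataaatacTTTCACTTTTCTTTTccccatt
SP100 start 1: aggttaaatacTTTCACTTctcttttcccc
TRIM38: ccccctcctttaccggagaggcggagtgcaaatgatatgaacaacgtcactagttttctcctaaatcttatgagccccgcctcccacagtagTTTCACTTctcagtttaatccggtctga
TRIM14: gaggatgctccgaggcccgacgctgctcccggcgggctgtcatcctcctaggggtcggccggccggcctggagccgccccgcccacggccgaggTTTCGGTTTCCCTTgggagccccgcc
TRIM21: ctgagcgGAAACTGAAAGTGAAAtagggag
TRIM5: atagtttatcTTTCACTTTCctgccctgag
TRIM25: ctcgagctaggTTTCGTTTcctcggcggcc
Counting from the start, the stretches end at base -83 for SP110 start 1, at -30 for SP110 start 2, at -66 for SP140L, at -46 for SP100 start 1 and at -8 for TRIM5, and those of TRIM38 and TRIM14 are the 120 bases before it. The TRIM21 stretch covers bases 11 to 40 after the start, and the TRIM25 stretch runs across the start from -14 to 16. The stretches of SP140L, TRIM38 and TRIM14 lie outside annotated exons of GENCODE release 29, and the others lie at least in part in an exon of some transcript.

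The 12 libraries were alike in breadth, with 14860 to 15292 genes at 1 TPM or more, and r of log2(TPM + 1) across genes of 0.983 to 0.987 between libraries of a group. TMEM173 checked the labels: it was at 21.67, 23.51 and 21.15 TPM in unirradiated WT and at 5.18, 5.29 and 6.96 TPM in unirradiated KO, then at 26.07, 21.41 and 21.72 TPM against 6.35, 7.41 and 7.08 TPM after radiation. No KO library overlapped a WT library (exact permutation test of 3 against 3, two-sided, p = 0.1 in each arm, the smallest that design allows). All 10 squamous epithelial markers were at 1 TPM or more in every library. Of the markers of other cells, 6 of 8 leukocyte, 3 of 5 endothelial and 5 of 6 fibroblast genes were below 1 TPM in every library, including PTPRC, PECAM1 and PDGFRB, with TYROBP and LUM at 0. The summed endothelial list, carried by CDH5 and VWF, was higher in irradiated cells, from 11.5 to 15.9 TPM over the 6 unirradiated and from 18.3 to 23.9 TPM over the 6 irradiated libraries, and its part in the radiation results was not tested. The leukocyte sum, carried by CD68 and CD14, ran from 19.5 to 25.5 TPM in unirradiated WT, 19.3 to 28.3 in unirradiated KO, 27.9 to 34.8 in irradiated WT and 20.7 to 28.1 in irradiated KO, the fibroblast sum stayed within 6.40 to 9.37 TPM, and their part was not tested either. In bulk RNA, fewer cells that express a gene and less RNA per cell cannot be told apart.

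TPM is a level per transcript length, so that levels of different genes can be set side by side. In unirradiated WT cells TRIM25 was the most abundant of the 10 genes at 72.1 TPM ± 3.95 (SD, n = 3), and TRIM5 the least at 14.3 TPM ± 1.40. Between them came SP100, TRIM14, SP140L, PML, SP110, TRIM21, TRIM22 and TRIM38. In that order the libraries overlapped between SP100 and TRIM14, SP140L and PML, SP110 and TRIM21, TRIM22 and TRIM38, and TRIM38 and TRIM5, so that these neighbours did not differ beyond their spread. By mean TPM over 12 libraries the genes stood between the 48.2 and the 83.2 percentile of the genes tested.

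**Figure D1:**
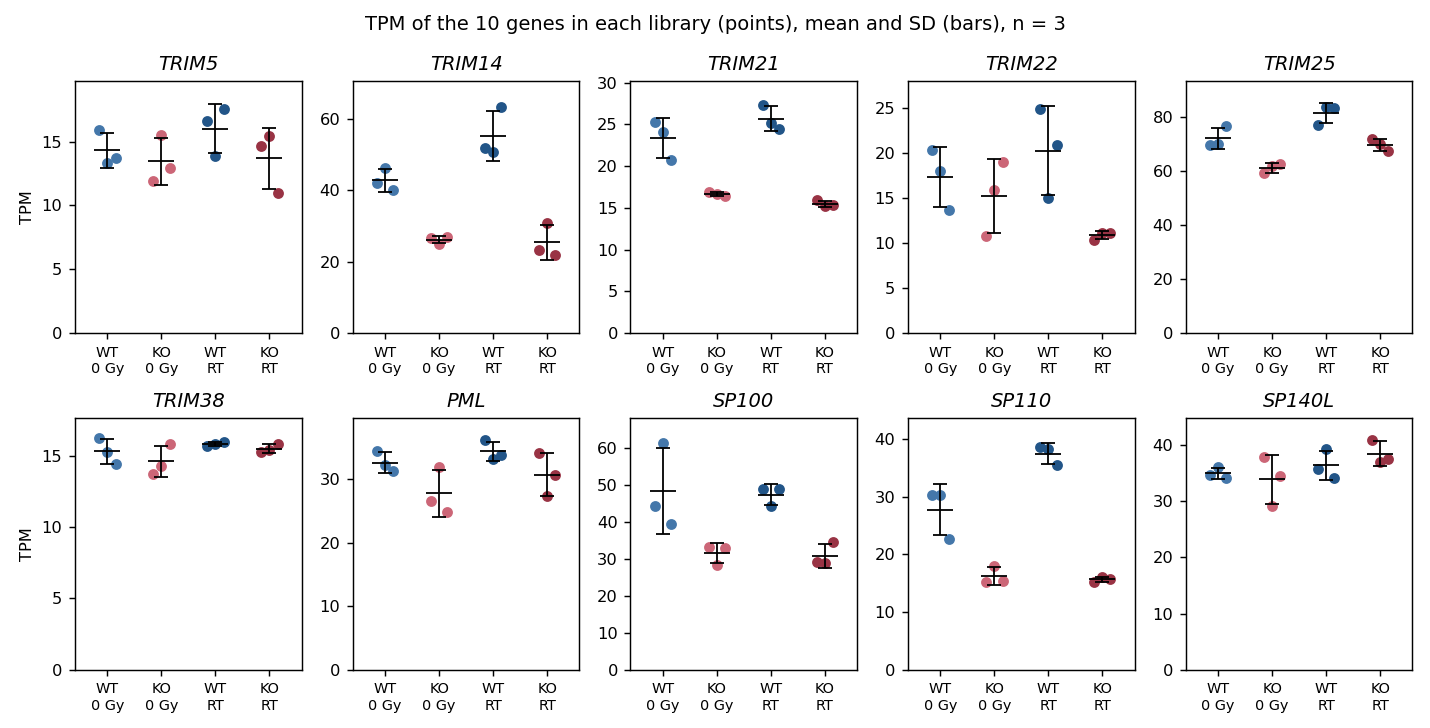
TPM of each of the 10 genes (vertical axes, from 0, scaled per gene) in the 3 libraries of each group (points), with the mean (long bar) and SD (whiskers). TRIM14, TRIM21, SP110, SP100 and TRIM25 sat lower in every STING KO library than in the WT libraries of the same treatment, whereas TRIM38 lay between 13.7 and 16.2 TPM throughout.

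The first question was which of these genes differed between STING KO and WT cells that had received no radiation. In KO cells the mean TPM of TRIM14 fell by 38.9%, that of TRIM21 fell by 28.8% and that of SP110 fell by 41.6%. All 10 genes had an estimate below 0, with a median log2 fold change of -0.23 against -0.02 over all genes tested. The call was made with limma on log2(TPM + 1), which slightly understates the change of low genes, at a Benjamini-Hochberg adjusted p under 0.05 over 15973 genes. It took in 3 of 10 genes, beside 1.73% of all genes (276, of which 202 were lower in KO, or 194 of 308 with median-of-ratios scaling). In 5 of 10 genes every KO library lay below every WT library, beside 12.1% of all genes. After radiation the mean TPM of TRIM14 fell by 54.0% in KO against WT cells, that of TRIM21 fell by 39.7%, that of SP110 fell by 58.1% and that of SP100 fell by 35.1%. There 4 of 10 genes were called, all lower in KO, beside 3.59% of all genes, and 6 of 10 had KO libraries wholly below WT, beside 14.5%. As the genes were chosen with earlier results of these data known, the shares in both arms only describe them. The median log2 fold change over the 10 genes was -0.41 in irradiated cells, against -0.02 over all genes tested, and 9 of 10 estimates were below 0. The unirradiated and irradiated KO effects compare separate libraries. Their spread was estimated in a single fit to all 12 libraries, so their p-values are not independent of each other. Nothing in the labels says that the 3 libraries of a group came from separate cultures, so the p-values measure the spread between these libraries.

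**Figure D2:**
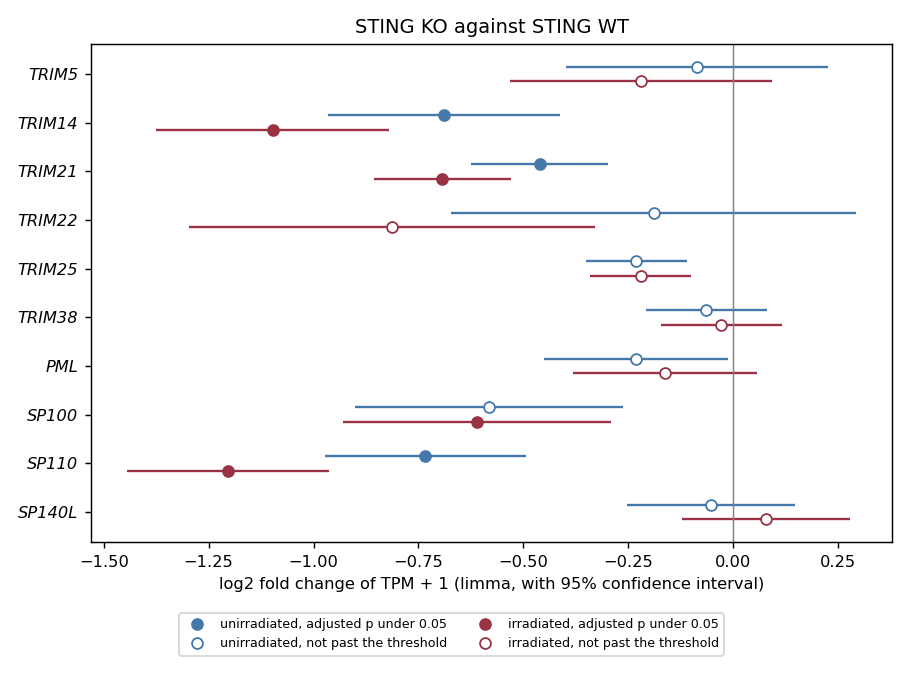
Log2 fold change of TPM + 1 in STING KO against STING WT cells (horizontal axis, with 95% confidence intervals from limma) for each gene, unirradiated in blue and irradiated in red, with filled points for adjusted p under 0.05. Estimates for SP110, TRIM14, TRIM21 and SP100 lie between -0.46 and -1.20, and those of TRIM38 and SP140L lie within 0.08 of 0.

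Among the TRIM proteins of RNA and DNA sensing, TRIM14 acts as an adaptor at mitochondria and also stabilizes the DNA sensor cGAS. It was at 42.22, 46.38 and 40.05 TPM in unirradiated WT and at 26.72, 24.98 and 26.89 TPM in unirradiated KO cells. All KO libraries were below all WT libraries and lay within 2 TPM of each other. On the log2 scale TRIM14 differed by -0.69 (SE 0.12, limma adjusted p = 0.019, with 0.0056 to 0.088 over the alternatives). The call did not hold without any single one of 5 libraries, namely WT 1, WT 2, KO 1, KO 2 or KO 3 of the unirradiated groups, where the adjusted p was 0.060 to 0.088 at a log2 fold change of -0.63 to -0.71. In irradiated cells it was at 51.79, 50.72 and 63.34 TPM in WT and at 23.43, 30.97 and 21.94 TPM in KO. The groups stood further apart, and differed by -1.10 (SE 0.12, adjusted p = 6.8e-04). TRIM14 (ENSG00000106785.14, chr9:98069275-98119212, minus strand) overlaps NANS on the opposite strand, and whether the counting used strand is not stated. NANS averaged 93.4 TPM in unirradiated WT, 98.9 in unirradiated KO, 108 in irradiated WT and 107 in irradiated KO. Its part in the TRIM14 values was not tested.

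TRIM25, which ubiquitinates the RNA sensor RIG-I, was at 69.58, 70.08 and 76.65 TPM in unirradiated WT and at 59.18, 61.88 and 62.71 TPM in unirradiated KO. After radiation it was at 77.08, 83.73 and 83.31 TPM in WT and at 71.71, 69.98 and 67.39 TPM in KO. The KO libraries were below the WT libraries in both arms, but by little. TRIM25 differed on the log2 scale by -0.23 (SE 0.054, limma adjusted p = 0.071) in unirradiated and by -0.22 (SE 0.054, adjusted p = 0.056) in irradiated cells, and neither passed the threshold. The irradiated difference passed without library WT 3 of the unirradiated group (adjusted p = 0.045, with 0.044 to 0.17 over the alternatives). TRIM25 (ENSG00000121060.16, chr17:56836387-56914080, minus strand) overlaps DGKE on the opposite strand, which averaged 11.1 TPM in unirradiated WT, 8.02 in unirradiated KO, 10.9 in irradiated WT and 8.11 in irradiated KO.

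TRIM38, a negative regulator of inflammatory signalling that also modifies sensors, lay between 13.7 and 16.2 TPM in all 12 libraries. It was at 16.24, 15.29 and 14.45 TPM in unirradiated WT, 13.74, 14.29 and 15.86 TPM in unirradiated KO, 15.67, 15.87 and 15.98 TPM in irradiated WT and 15.26, 15.44 and 15.86 TPM in irradiated KO. KO and WT libraries overlapped in both arms. The 95% confidence interval of the log2 difference between KO and WT was -0.21 to 0.08 in unirradiated and -0.17 to 0.12 in irradiated cells (limma adjusted p = 0.73 and 0.87). TRIM38 (ENSG00000112343.10) is at chr6:25962802-25991226 on the plus strand.

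TRIM21 is a cytosolic Fc receptor that targets antibody-bound virus for degradation. It was at 25.28, 24.08 and 20.74 TPM in unirradiated WT and at 16.90, 16.63 and 16.40 TPM in unirradiated KO. After radiation it was at 27.36, 25.20 and 24.49 TPM in WT and at 15.90, 15.18 and 15.39 TPM in KO. Every KO library was lower, and the KO libraries of an arm were within 1 TPM of each other. TRIM21 differed on the log2 scale by -0.46 (SE 0.074, limma adjusted p = 0.0098) in unirradiated and by -0.69 (SE 0.074, adjusted p = 4.4e-04) in irradiated cells. The unirradiated call held without any single library, but not in a fit to the unirradiated libraries alone (adjusted p = 0.099, with 0.0025 to 0.099 over the alternatives). TRIM21 (ENSG00000132109.9) is at chr11:4384897-4393696 on the minus strand.

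TRIM5 and TRIM22 restrict retroviruses, TRIM5 at the incoming capsid and TRIM22 through viral transcription. TRIM5 was at 15.92, 13.35 and 13.69 TPM in unirradiated WT, 11.96, 15.52 and 12.95 TPM in unirradiated KO, 16.65, 13.88 and 17.56 TPM in irradiated WT and 14.68, 15.42 and 10.99 TPM in irradiated KO. The 4 groups overlapped, and the log2 fold change in KO was -0.09 (SE 0.14, limma adjusted p = 0.84) in unirradiated and -0.22 (SE 0.14, adjusted p = 0.47) in irradiated cells. TRIM22 was at 20.32, 18.02 and 13.70 TPM in unirradiated WT and at 10.84, 15.97 and 19.01 TPM in unirradiated KO, so that these groups overlapped. After radiation it was at 24.90, 15.08 and 20.89 TPM in WT and at 10.40, 11.13 and 11.17 TPM in KO. All irradiated KO libraries were below all irradiated WT libraries, and they were also closer together, with a coefficient of variation of 3.97% against 24.3% in irradiated WT. The log2 fold change of TRIM22 was -0.19 (SE 0.22, adjusted p = 0.76) in unirradiated and -0.81 (SE 0.22, adjusted p = 0.075) in irradiated cells, and neither was called. Without library KO 1 of the unirradiated group the first value was 0.02 and the irradiated difference passed (adjusted p = 0.047, with 0.047 to 0.21 over the alternatives). TRIM22 (ENSG00000132274.15, chr11:5689689-5737089, plus strand) lies within the annotated span of TRIM5 (ENSG00000132256.18, chr11:5663557-5938619, minus strand), and without a stated strand setting reads from their shared stretch cannot be assigned with certainty.

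PML, the scaffold of the bodies, was at 34.40, 32.16 and 31.25 TPM in unirradiated WT and at 26.49, 31.86 and 24.90 TPM in unirradiated KO. After radiation it was at 36.14, 33.19 and 33.82 TPM in WT and at 34.13, 27.39 and 30.62 TPM in KO. In each arm 1 KO library reached into the WT range and the others were below it. Its log2 fold change in KO was -0.23 (SE 0.099, limma adjusted p = 0.33) in unirradiated and -0.16 (SE 0.099, adjusted p = 0.45) in irradiated cells. PML (ENSG00000140464.19) is at chr15:73994673-74047812 on the plus strand.

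SP100, the body component that represses viral promoters, was at 44.31, 61.46 and 39.46 TPM in unirradiated WT and at 33.31, 28.39 and 32.88 TPM in unirradiated KO. The WT libraries spread widely, with library 2 at 61.46 TPM, and all were above the KO libraries. After radiation SP100 was at 49.04, 44.19 and 48.99 TPM in WT and at 29.06, 28.76 and 34.53 TPM in KO, again without overlap. SP100 had log2 fold changes of -0.58 (SE 0.14, limma adjusted p = 0.086) in unirradiated and of -0.61 (SE 0.14, adjusted p = 0.046) in irradiated cells, so that estimates of like size fell on either side of the threshold. The irradiated call was lost without any single one of 10 libraries (adjusted p 0.059 to 0.14), that is any of the 12 apart from unirradiated WT 2 and WT 3. It was also lost with no filter on low values (0.086) or no variance trend (0.057), over a range of 0.0082 to 0.14 in the alternatives. The unirradiated difference passed without WT 3 (adjusted p = 0.044, with 0.044 to 0.25 over the alternatives). SP100 (ENSG00000067066.16) is at chr2:230415942-230544090 on the plus strand.

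SP110, a nuclear body protein linked to resistance to intracellular bacteria, was called in both arms. It was at 30.32, 30.25 and 22.65 TPM in unirradiated WT and at 15.19, 18.03 and 15.35 TPM in unirradiated KO. After radiation it was at 38.64, 38.28 and 35.47 TPM in WT and at 15.24, 16.13 and 15.69 TPM in KO. The KO libraries of both arms lay between 15.19 and 18.03 TPM, below all WT libraries. The difference on the log2 scale was -0.73 (SE 0.11, limma adjusted p = 0.0058) in unirradiated and -1.20 (SE 0.11, adjusted p = 1.2e-04) in irradiated cells, and both calls held without any single library. A fit to the unirradiated libraries alone did not call the former (adjusted p = 0.098, with 5.0e-04 to 0.098 over the alternatives). SP110 (ENSG00000135899.17, chr2:230167293-230225729, minus strand) overlaps SP140 on the opposite strand, which averaged 1.18 TPM or less in each group.

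SP140L, a close relative of SP100, behaved otherwise. It was at 34.74, 36.05 and 34.17 TPM in unirradiated WT, 37.97, 29.17 and 34.53 TPM in unirradiated KO, 35.76, 39.29 and 34.15 TPM in irradiated WT and 40.97, 36.94 and 37.52 TPM in irradiated KO. The groups overlapped in both arms, and the 95% confidence interval of the log2 difference between KO and WT was -0.25 to 0.15 in unirradiated and -0.12 to 0.28 in irradiated cells (limma adjusted p = 0.85 and 0.71). Set against SP100 in the same library, the ratio of SP100 to SP140L TPM was 1.15, 1.28 and 1.71 in unirradiated WT, 0.877, 0.952 and 0.973 in unirradiated KO, 1.12, 1.37 and 1.43 in irradiated WT and 0.709, 0.779 and 0.92 in irradiated KO. SP100 was the more abundant transcript in all 6 WT libraries and SP140L in all 6 KO libraries. This ratio was chosen after its values were seen and is given without a test. SP140L (ENSG00000185404.16, chr2:230327184-230403732, plus strand) and SP100 are paralogs, and how reads common to both were divided is not stated.

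The next question was whether 4 fractions of 2 Gy changed these genes. In WT cells no member was called (limma, 0 of 10), beside 3.74% of all genes, and 3 of 10 were below an unadjusted p of 0.05, beside 2910 of 15973. In TRIM14, TRIM25 and SP110 every irradiated WT library was above every unirradiated one, 3 of 10 beside 14.7% of all genes. SP110 went from 27.7 TPM ± 4.41 (SD, n = 3) to 37.5 TPM ± 1.73, a difference of 0.43 on the log2 scale (SE 0.11, limma adjusted p = 0.056, with 0.048 to 0.17 over the alternatives, past the threshold at a mean TPM of at least 5 and with quantile normalization). TRIM14 went from 42.9 TPM ± 3.22 to 55.3 TPM ± 7.0, at 0.35 (SE 0.12, adjusted p = 0.17), and TRIM25 from 72.1 TPM ± 3.95 to 81.4 TPM ± 3.73, at 0.17 (SE 0.054, adjusted p = 0.12). For the other 7 genes the libraries overlapped, with estimates from -0.01 for SP100 to 0.20 for TRIM22. The median log2 fold change was 0.14 over the 10 genes and 0.02 over all genes tested, with 9 of 10 above 0.

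In KO cells radiation again gave no call (limma, 0 of 10), beside 3.69% of all genes, and 1 of 10 was below an unadjusted p of 0.05, beside 2896 of 15973. TRIM25 was the only one of the 10 whose irradiated KO libraries were all above the unirradiated ones, 1 of 10 beside 13.7% of all genes, at 61.3 TPM ± 1.84 (SD, n = 3) and 69.7 TPM ± 2.18, and 0.18 higher on the log2 scale (SE 0.054, adjusted p = 0.099). TRIM21 libraries did not overlap in the other direction, with a log2 fold change of -0.10 (adjusted p = 0.54). That is 1 of 10, and the share of all genes that were wholly lower was not counted. SP110 and TRIM14 stayed at 16.2 and 15.7 TPM and at 26.2 and 25.5 TPM, with log2 fold changes of -0.04 and -0.05. TRIM22 had the estimate farthest from 0, at -0.42 (SE 0.22, adjusted p = 0.35). The median over the 10 genes was -0.01, against 0.02 over all genes tested.

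**Figure D3:**
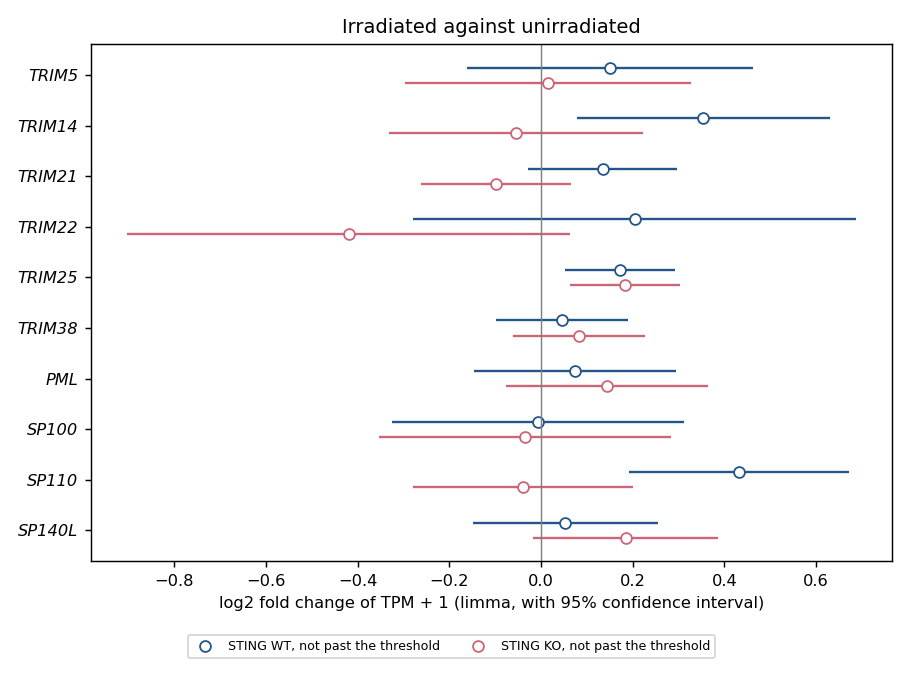
Log2 fold change of TPM + 1 in irradiated against unirradiated cells (horizontal axis, with 95% confidence intervals from limma) for each gene, STING WT in blue and STING KO in red; open points did not pass the adjusted threshold. In WT cells SP110 (0.43) and TRIM14 (0.35) have intervals above 0, and in KO cells their intervals span 0, while those of TRIM25 (0.17 and 0.18) are above 0 in both.

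Whether the radiation effect differed between WT and KO cells was tested as the interaction. It uses all 12 libraries and shares them with the comparisons already given. No gene of the 10 was called (limma, 0 of 10), beside 0.0188% of all genes (3), and 3 of 10 were below an unadjusted p of 0.05, beside 1056 of 15973. SP110 had an interaction of -0.47 on the log2 scale (SE 0.15, adjusted p = 0.68), TRIM14 of -0.41 (SE 0.18, adjusted p = 0.74), TRIM21 of -0.23 (SE 0.10, adjusted p = 0.75) and TRIM22 of -0.62 (SE 0.31, adjusted p = 0.76). Their 95% confidence intervals, not adjusted for the number of genes, were -0.81 to -0.13, -0.80 to -0.018, -0.46 to -0.0011 and -1.31 to 0.059. TRIM25 was at 0.01, with a 95% confidence interval of -0.16 to 0.18. A difference in the radiation response between WT and KO cells was thus not detected for any of the 10 genes by this test.

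The rest of the TRIM family was set beside the 10 genes, which had been chosen with earlier results of these data known. Of 85 further genes whose symbol is TRIM and a number, 37 passed the filter. In either KO effect limma called 0 of 37, beside 1.73% and 3.59% of all genes. A count of 0 among 37 is near those shares. Below an unadjusted p of 0.05 (limma) were 2 and 8 of 37, beside 2292 and 2855 of all 15973 genes tested. The median log2 fold change of the 37 genes was -0.05 in unirradiated and 0.00 in irradiated cells. Radiation called 2 of 37 in WT and 2 of 37 in KO cells, all lower, which is near the 3.74% and 3.69% of all genes. TRIM29, an epithelial TRIM protein, dropped in WT cells from 128 to 85.2 TPM (log2 fold change -0.58, SE 0.085, limma adjusted p = 0.0055) and in KO cells from 138 to 99.9 TPM (-0.47, SE 0.085, adjusted p = 0.016). TRIM59 fell in WT cells from 54.6 to 41.2 TPM (-0.40, adjusted p = 0.0064) and TRIM69 in KO cells from 19.9 to 16.1 TPM (-0.29, adjusted p = 0.014). None of the 10 genes had fallen with radiation by this test.

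**Figure D4:**
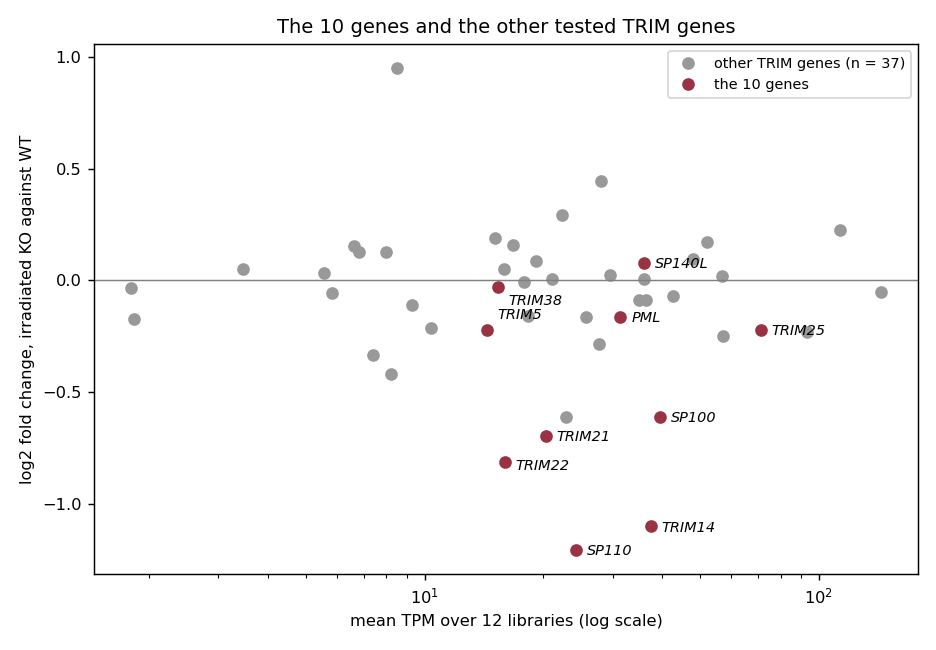
Log2 fold change in irradiated STING KO against WT cells (vertical axis) against mean TPM over 12 libraries (horizontal axis, log scale) for the 10 genes (red, named) and the 37 further TRIM genes tested (grey). SP110 and TRIM14 lie at -1.20 and -1.10, and no grey gene passed the adjusted threshold.

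Other components of PML nuclear bodies and of the SUMO machinery that holds them together were read from a list of 32 genes, all of which were tested. A single one, ISG20, fell in unirradiated KO cells, and ISG20 and SUMO2 fell in irradiated KO cells. Counts of 1 and 2 of 32 are near the 1.73% and 3.59% of all genes called in these arms. ISG20, an interferon-induced exonuclease that digests viral RNA, was at 11.2 TPM ± 3.57 (SD, n = 3) in WT and 2.25 TPM ± 0.80 in KO without radiation (log2 fold change -1.90, SE 0.26, limma adjusted p = 0.0043). With radiation it was at 21.2 TPM ± 4.68 and 3.00 TPM ± 0.855 (-2.47, adjusted p = 4.6e-04). SUMO2, a modifier protein, was at 385 and 335 TPM in irradiated cells (-0.20, SE 0.038, adjusted p = 0.017). HSPA1A, a heat shock protein, fell with radiation in WT (-0.27, adjusted p = 0.015) and in KO cells (-0.29, adjusted p = 0.0096). The median of the list was -0.05 in unirradiated and 0.00 in irradiated KO against WT cells, near that of all genes.

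The signalling partners of the TRIM proteins, their sensors, adaptors and cofactors, made a list of 25 genes, all tested. DDX58, IFIH1 and ZC3HAV1 fell in KO cells in both arms, and the other 22 were not called in either. These are 3 of 25 in each arm, beside 1.73% of all genes in unirradiated and 3.59% in irradiated cells. DDX58 encodes RIG-I, the RNA sensor that TRIM25 modifies, and was at 39.6 TPM ± 6.17 (SD, n = 3) in WT and 4.26 TPM ± 0.529 in KO without radiation (log2 fold change -2.94, SE 0.11, limma adjusted p = 2.3e-07). With radiation it differed by -3.42 (adjusted p = 4.5e-08). IFIH1 encodes the RNA sensor MDA5 and had log2 fold changes of -0.72 (adjusted p = 0.010) and -1.23 (adjusted p = 1.9e-04). ZC3HAV1, the zinc-finger antiviral protein that works with TRIM25, was at 92.9 and 48.7 TPM without radiation (-0.92, adjusted p = 3.6e-06) and differed by -1.06 with it (adjusted p = 8.1e-07). In WT cells radiation raised DDX58 (0.75, adjusted p = 0.0065) and ZC3HAV1 (0.21, adjusted p = 0.045). In KO cells it lowered RNF135, a ligase that acts on RIG-I, from 11.6 to 8.57 TPM (-0.40, adjusted p = 0.022). Over the list 10 of 25 estimates were below 0 in unirradiated and 15 of 25 in irradiated cells, with medians of 0.02 and -0.02.

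Among 16 interferon signalling factors, 14 passed the filter. IRF9 and IRF7 fell in KO cells in both arms, and STAT2 and IRF1 fell in irradiated KO cells. IRF9, a DNA-binding part of the interferon-activated transcription complex, was at 48.6 TPM ± 7.50 (SD, n = 3) in WT and 20.6 TPM ± 2.26 in KO without radiation (log2 fold change -1.19, SE 0.18, limma adjusted p = 0.0057), and at 80.9 TPM ± 13.6 and 18.3 TPM ± 4.17 with it (-2.09, adjusted p = 7.6e-05). IRF7, which drives interferon genes, differed by -0.82 (adjusted p = 0.012) and -1.24 (adjusted p = 5.3e-04). STAT2 and IRF1 differed by -0.38 (adjusted p = 0.048) and -0.73 (adjusted p = 0.038) in irradiated cells. Radiation called 0 of the 14 in WT or KO cells (limma). A count of 0 among 14 is near the 3.74% and 3.69% of all genes called there. Below an unadjusted p of 0.05 (limma) were 3 and 1 of 14, beside 2910 and 2896 of all 15973 genes tested.

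To see which genes followed each of the 10 most closely, Pearson's r of log2(TPM + 1) was computed over the 12 libraries against 11135 genes with a mean of at least 5 TPM. The libraries share 4 groups, and r is given as a description without a p. SP110 was most like B4GALT5 (r = 0.99), FNDC3A and IFIT5. TRIM21 followed EPSTI1 (r = 0.988), BST2 and DTX3L, and TRIM14 followed N4BP1, PMAIP1 and EIF2AK2 (r = 0.974 for PMAIP1 and 0.971 for EIF2AK2). SP100 was most like IFI35 (r = 0.944), PITPNB and PARP14, and TRIM25 like COL6A2 (r = 0.974), ATP6V1F and NCR3LG1. The nearest to the remaining genes were STK32C for TRIM5 (r = 0.941), SGPP2 for TRIM22 (0.872), DNAJB9 for TRIM38 (0.887), SMARCAD1 for PML (0.863) and APLP2 for SP140L (0.887). Among the 10 genes themselves the closest were TRIM21 with SP110 (r = 0.974) and TRIM14 with SP110 (r = 0.942), whereas SP140L ranged from -0.468 to 0.237 against the others.

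The start windows printed before the values were searched for 3 motifs on both strands. The ISRE core is GAAA with any 2 bases and GAAA again, to which interferon-activated complexes with IRF9 and other IRF factors bind. It was present in 3 of 10 windows (3 of 8 genes, TRIM14, TRIM21 and TRIM5) and in 3.57% of 35116 RefSeq windows. It lay at bases -26 to -17 in TRIM14, at -27 to -18 in TRIM5, and at 18 to 27 and 24 to 33 in TRIM21, where the copies overlap. TRIM14 and TRIM21 were called in both arms, and TRIM5, with a match at nearly the same distance as TRIM14, overlapped between KO and WT in both. The shorter IRF core, AANNGAAA, was added after the sequences had been read and is part of every ISRE core match. It was found in 9 of 10 windows (8 of 8 genes) and in 22.8% of all windows, and so was present also in SP140L and TRIM38, whose libraries overlapped. SP140L and SP110 start 2 share the unbroken run TTTCACTTTTCTTTT, and SP110 start 1 holds the same run on the opposite strand. In SP100 start 1 this run is broken by a C in place of the T that follows TTTCACTT, and its remaining bases are the same. Of it, only TTTCACTT is in capitals there, as the match to the IRF core. Over the whole windows SP100 start 1 and SP140L were identical at 252 of 272 aligned positions (92.6%, with 56 gap positions). The GAS motif (interferon-gamma activated site), TTCNNNGAA, was found in SP110 start 2 alone, at -38 to -30 and overlapping the IRF core match, and in 7.66% of all windows. A match describes letters in these windows only, and binding was not measured.

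**Figure D5:**
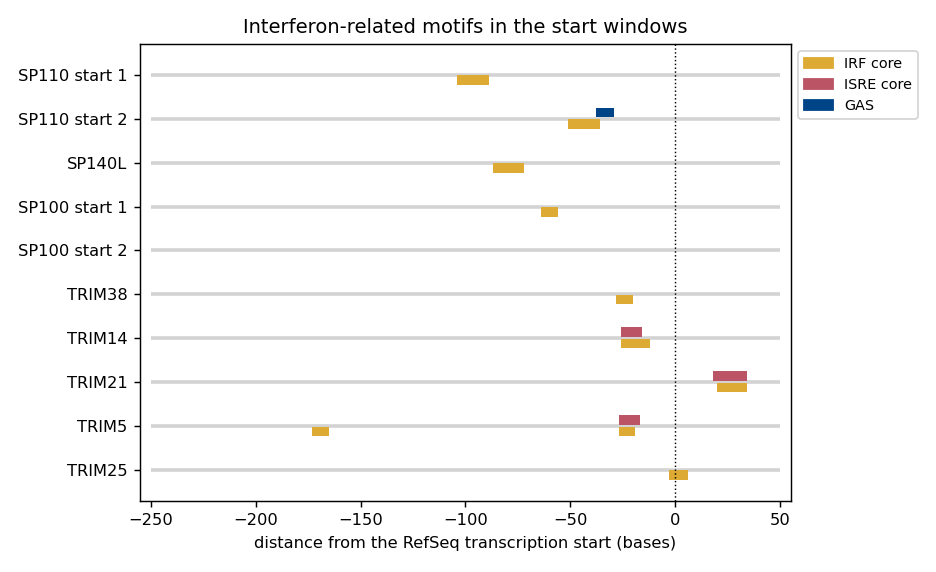
Matches to the IRF core (yellow, under the line), the ISRE core (red, above it) and the GAS motif (blue, above it) in 10 RefSeq start windows (rows), by distance in bases from the start (dotted line). The IRF core is marked in 9 of 10 windows, and the ISRE core only in those of TRIM14, TRIM21 and TRIM5.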

How the data were processed

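The authors deposited a single table of TPM per gene and library. RNA was selected with oligo-dT beads and sequenced as paired ends. The submitters' processing notes name HISAT2, StringTie, DESeq2 and the hg38 build; versions, annotation and strand setting are not given in the sources used here. Read depth cannot be read from TPM, so errors rest on the spread between libraries. The WT columns were matched by the name of the non-targeting gRNA, and the columns of the only other line were taken as KO. The study's supplementary sheet has columns labelled by genotype. For 150 of 150 genes the TPM relative to the mean of unirradiated WT equalled those columns within 0.001.

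The deposited TPM were transformed to log2(TPM + 1) for genes with 1 TPM or more in 3 or more libraries and fitted with limma 3.58.1 in R 4.3.3 (12 libraries, 4 group means, 8 residual degrees of freedom, eBayes with trend). The 5 contrasts had Benjamini-Hochberg adjustment at 0.05. The code was tested on simulated data. Alternatives were a pseudocount of 0.1, other filters, scalings and variance models, a replicate block, fits to the groups compared and each library left out. Gene positions are from GENCODE release 29 (GRCh38), where the identifier of TRIM25 has another version. Named were the 10 genes, TMEM173, listed genes past the threshold in a KO or radiation effect, the 3 genes most alike to each member and overlapping genes. The members and lists were chosen with earlier results of these data known. The result of a further gene of the list of interferon signalling factors is not reported here.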

Additional observations from a re-analysis of the deposited data

How the results depend on the processing

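Of 990 alternative values of the log2 fold changes of the 10 genes, 931 kept their direction and their side of the threshold, 21 lost a call, 6 gained one and 32 changed sign. The calls lost were those of TRIM14, TRIM21 and SP110 in unirradiated cells and of SP100 in irradiated cells. With only the groups compared in the fit, 1 of the 10 genes (TRIM14) was called in unirradiated KO cells in place of 3, with adjusted p of 0.099 for TRIM21 and 0.098 for SP110. SP100 in irradiated cells also lost its call with no filter (adjusted p = 0.086) and without the variance trend (0.057). With a mean TPM of at least 5 or with quantile normalization, 1 gene (SP110) was called for radiation in WT cells (adjusted p = 0.0496 and 0.048). TRIM25 in irradiated cells passed at a mean TPM of at least 5 (0.044). Leaving out each library gave 2 to 4 called genes in unirradiated and 3 to 5 in irradiated KO cells, and 0 in the others.

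No pairing by replicate number was seen: deviations of the 18 same-numbered pairs correlated at -0.060 to 0.064, and a library correlated best with its own number in 10 of 36 cases. With 3 libraries per group this check cannot exclude a pairing. With the replicate block, TRIM14 in unirradiated cells (adjusted p = 0.054) and SP100 in irradiated cells (0.10) lost their calls, and no other call among the 10 genes changed. Over all genes the block called 211 in place of 276 in unirradiated and 378 in place of 573 in irradiated KO cells, 315 in place of 597 for radiation in WT, 359 in place of 590 in KO cells and 1 in place of 3 for the interaction. Fits to the groups compared called 103, 252, 166 and 195 genes for the first 4. The interaction gave 7 with no filter and 1 without the variance trend. Without single libraries the counts over all genes were 172 to 292, 313 to 542, 242 to 526, 268 to 553 and 1 to 9.

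The changes of sign were all in values that were not called, the farthest from 0 being -0.19 for TRIM22 in unirradiated KO cells and -0.13 for the TRIM5 interaction. TRIM5 with radiation in KO cells was at -0.0031 with median-of-ratios scaling and -0.011 with quantile normalization, and TRIM38 in irradiated KO cells at 0.013 with the latter. Without single libraries the log2 values ran from -0.070 to 0.16 for TRIM5, -0.20 to 0.040 for TRIM14, -0.12 to 0.011 for SP100 and -0.080 to 0.036 for SP110 with radiation in KO cells, from -0.14 to 0.18 for SP100 and -0.0013 to 0.097 for SP140L with radiation in WT cells, and from -0.36 to 0.023 for TRIM22 and -0.14 to 0.048 for SP140L in unirradiated KO cells. For the interaction they ran from -0.23 to 0.0066 for TRIM5, -0.034 to 0.035 for TRIM25, -0.0052 to 0.092 for TRIM38, -0.0075 to 0.17 for PML and -0.21 to 0.10 for SP100. The ISRE core with 1 more fixed base at each end was found in 0 of the 8 genes, and the IRF core, added after seeing the sequences, in 8. Some of the fits had fewer libraries and degrees of freedom, and the cause of these changes was not tested. TPM without counts left the depth of single values unknown.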
